A study of Mus musculus with 48 samples.

Results

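The response of CCDC174-depleted mouse embryonic stem (mES) cells to cycloheximide (CHX) was measured by RNA-seq in 4 libraries, 2 of Ccdc174-dTAG cells with CHX and 2 of Ccdc174-dTAG cells without it. The genes described are those with a mean of at least 0.5 CPM (a gene's reads scaled to the library's depth) over these 4 libraries, which were 15054 of the 55335 genes in the table. At this limit, Glud-ps, Rbm46 and Gm12359 lay just inside with means of 0.50 CPM, and Gm45311, 9430037O13Rik and Tnfsf9 lay just outside with means of 0.4995, 0.4993 and 0.4992 CPM. All cells were of hybrid 129-C57BL/6 background and grew in medium with serum, LIF and 2i. Ccdc174-dTAG cells carried Ccdc174 fused to the FKBP12F36V degron at both alleles and were exposed to 500 nM dTAG-13 for 24 h, so that the fusion protein was degraded. The control, called Ccdc174-WT, was the same fusion line without dTAG-13, and each of the 2 conditions was measured without CHX and after 0.1 mg/ml CHX for 4 h. For comparison, a separate experiment held Nrde2-KO cells, in which the gene was deleted after 100 nM 4-hydroxytamoxifen for 4 days, and their own WT cells, which the labels give as the wild-type state of the conditional Nrde2 knockout, again without and with CHX. Every group had 2 libraries, the lines were genotyped clones, and nothing in the labels says whether 2 libraries of a group came from separate cultures, so that p-values measure only the spread between these samples. Because the degrader acts on the protein, the RNA cannot show that CCDC174 was depleted.

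CHX blocks the elongation step of translation in the cytoplasm. An RNA can change in such cells because a short-lived repressor or decay factor is no longer made, as in the classical superinduction of immediate early genes, because its own decay depends on ribosomes, as in nonsense-mediated decay (NMD) and in the ARE-linked decay of some unstable mRNAs, or because a short-lived activator of its gene is lost. CCDC174 is a nuclear protein found with the exon junction complex, which marks spliced mRNA and takes part in NMD, and NRDE2 is a nuclear partner of the RNA helicase MTREX.

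The 4 libraries held between 32972802 and 35468970 reads in genes, and 1 read was worth between 0.0256 and 0.0270 CPM, so that a gene near the lower limit rested on few reads. The 2 Ccdc174-dTAG libraries without CHX stood further apart than the pairs of the other 3 Ccdc174 groups. Among 10383 genes at 5 CPM or more, 53 differed by over 2-fold between them, against 8 between the Ccdc174-dTAG libraries with CHX, and 3 and 3 within the Ccdc174-WT pairs. Replication-dependent histone genes carried much of this, with a summed level of 7948 normalized CPM in replicate 1 and 5006 in replicate 2. List counts that moved by over 1.5 times without 1 of the 4 Ccdc174-dTAG libraries are given with the lists. The labelled cell type was borne out by its markers, since the 5 stem cell markers (with *Pou5f1* and *Nanog*) summed to 3327 and 3493 normalized CPM without CHX and to between 2202 and 2217 with CHX.

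CHX changed the level of 2178 genes in CCDC174-depleted cells, which was 14.5% of those tested, and 1748 of them rose while 430 fell. A gene was called when its Benjamini-Hochberg adjusted p from limma was below 0.01 and its log2 fold change was above 1 or below −1. Called genes thus made up 11.6% in the upward and 2.86% in the downward direction, and these shares are the background for each gene list below. The median log2 fold change of the rising genes was 1.47, with 388 above 2 and 59 above 3, and that of the falling genes was −1.24, with 47 below −2 and 6 below −3. The rising genes were mostly weakly expressed in untreated cells, with a median of 1.49 normalized CPM that became 5.12, and 514 of them were below 0.5 CPM without CHX and entered the test only through the treated libraries. The falling genes were well expressed, with a median of 16.5 normalized CPM that became 5.83, and 83 of them dropped below 0.5 CPM. In all called genes the 2 CHX libraries lay beyond both untreated ones, against 40.4% of all genes tested that lay apart upward and 40.2% downward.

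**Figure D1:**
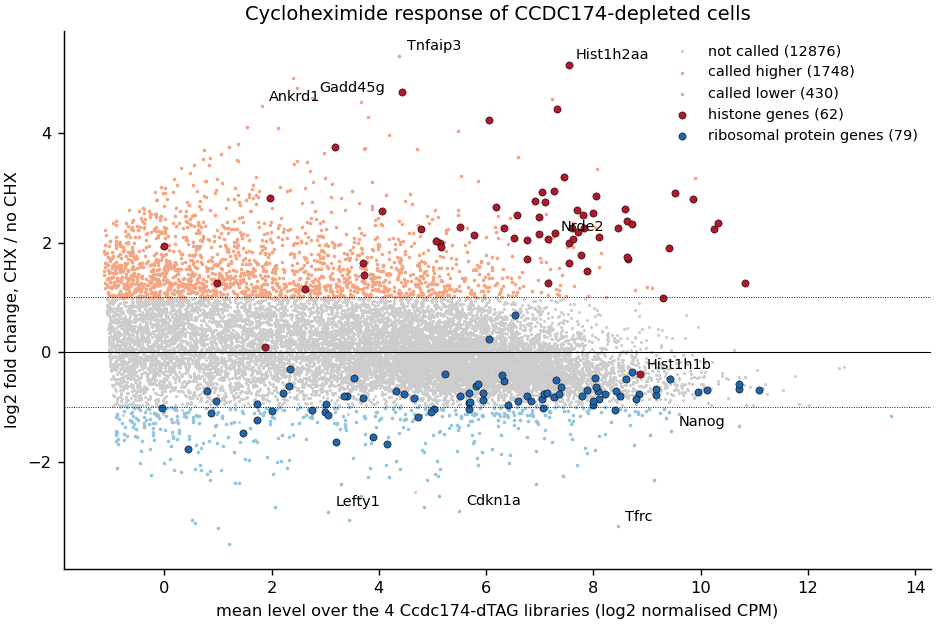
Each point is a gene, with the mean level over the 4 Ccdc174-dTAG libraries (log2 normalized CPM) on the horizontal axis and the log2 fold change, CHX over no CHX, on the vertical axis, and dotted lines mark 1 and −1. The 1748 genes called higher sit mainly at low levels, the histone genes (dark red) sit high on both axes, and the ribosomal protein genes (dark blue) lie mostly below 0.

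The size of the downward response depended on scaling. In the main scale each library was divided by its median-of-ratios factor, which set the median log2 change of all genes near 0, and without this step, on CPM as deposited, the median of all genes was 0.24. On that scale 2613 genes were called higher and 216 lower, so that upward calls made up 92.4% in place of 80.3%. All changes below are relative to the median gene.

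*Ccdc174* (chr6:91878053-91899843, plus strand) gave 36.8 and 40.1 normalized CPM without CHX and 58.6 and 55.6 with it. Both treated libraries were higher, and the log2 change of 0.57 ± 0.08 (SE, adjusted p = 1.17e-04, limma) stayed under the fold limit. In Ccdc174-WT the change was 0.75. *Nrde2* gave 57.9 and 56.2 normalized CPM in untreated and 256 and 237 in treated cells, a log2 change of 2.10 ± 0.07 (adjusted p = 2.16e-08), and it was the only called gene among the 10 genes of the list of exon junction complex subunits, CCDC174, NRDE2 and MTREX. The other members of that list were between −0.82 and 0.57, and the list median was −0.30.

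On this scale, with 0.25 CPM added before the log, the gene with the largest increase was *Tnfaip3*, which encodes A20, a ubiquitin-editing inhibitor of NF-κB signalling. It gave 0.493 and 1.00 normalized CPM without CHX and 42.8 and 39.1 with it, so that treated and untreated libraries were far apart, with a log2 fold change of 5.41 ± 0.24 (adjusted p = 1.3e-07). *Gadd45g*, a growth arrest and DNA damage inducible gene, rose from 0.377 and 0.201 to 14.3 and 11.9 CPM, a log2 change of 4.65. *Bcl6*, a transcriptional repressor, rose from 1.28 and 0.976 to 25.6 and 27.5 CPM, a log2 change of 4.29. In each of these genes the treated libraries were far above both untreated ones. *Tcim* rose from 0.145 and 0.143 to 12.2 and 9.75 CPM (log2 change 4.82), and *Ankrd1*, a target of YAP signalling, from 0.058 and 0.0861 to 6.33 and 7.68 CPM (4.49). The untreated values of *Gadd45g*, *Tcim* and *Ankrd1* rested on few reads, and over all settings the log2 change of *Gadd45g* was between 3.45 and 5.55. The order depends on the amount added, since edgeR on reads gave 6.28 for *Tcim*, 6.60 for *Ankrd1* and 6.93 for the histone neighbour *Gm42743*, against 5.83 for *Tnfaip3*. Of the 12 genes with the largest increase, 4 were members of the histone list and 3 others overlap or lie near members of it, described next.

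**Figure D2:**
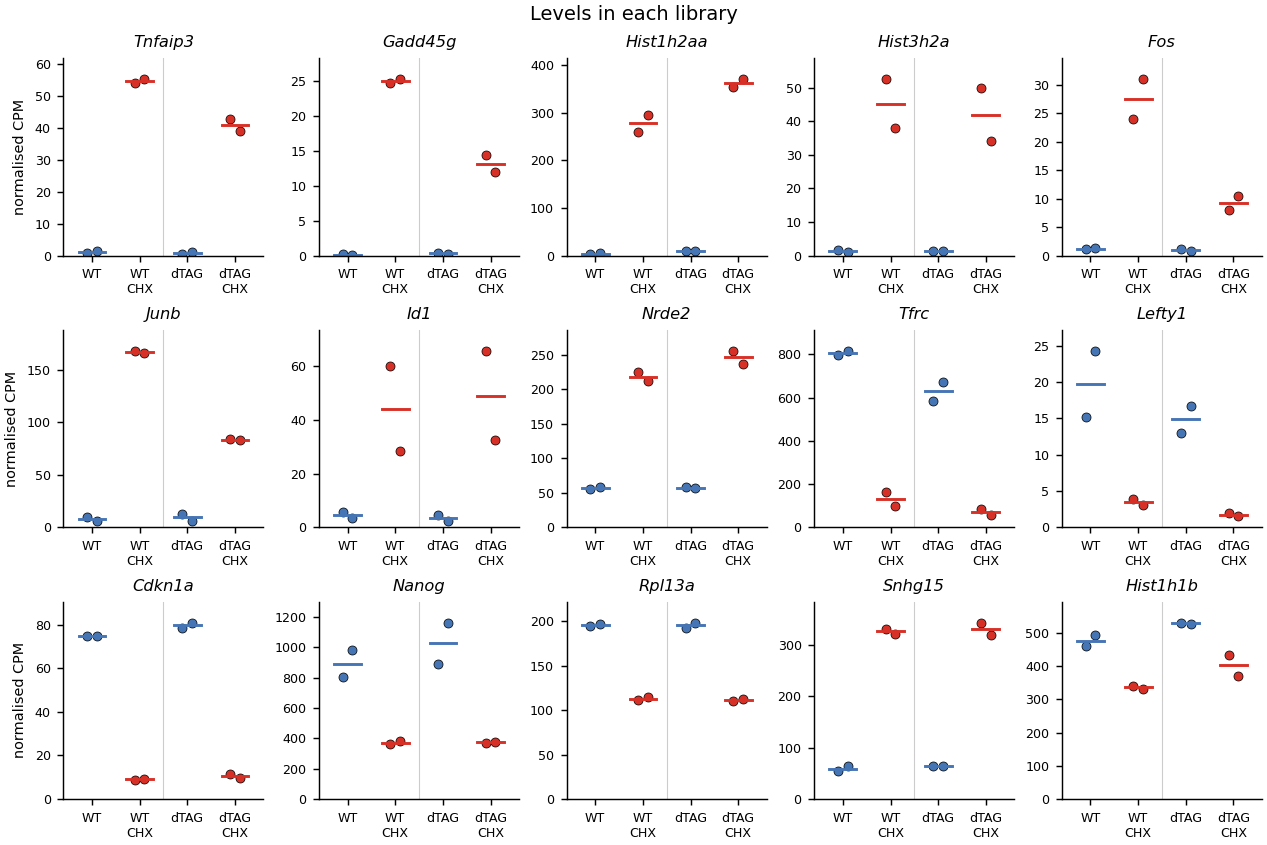
Normalized CPM of 15 genes in each library, with blue points for untreated and red points for CHX-treated libraries of Ccdc174-WT (WT) and Ccdc174-dTAG (dTAG) and bars for the mean of 2 libraries. Tnfaip3 rises from below 2 to between 39.1 and 55.1 CPM in both conditions, while Tfrc, Lefty1, Cdkn1a and Nanog fall in both.

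Replication-dependent histone genes were raised nearly as a whole. Their mRNAs are made in S phase, end in a stem-loop in place of a poly(A) tail, and are decayed quickly when DNA synthesis stops. Of 62 tested members of the list, 59 were called higher and 0 lower, and the median log2 fold change was 2.25, against a median near 0 for all genes tested. Their summed level was 7948 and 5006 normalized CPM without CHX and 25647 and 24102 with CHX, so that both treated libraries were far above both untreated ones. The divergent untreated pair set the size of this change. The list median was 2.81 without replicate 1 of the untreated libraries and 1.67 without replicate 2, with 59 and 56 members called, and it was 2.16 and 2.28 without the CHX libraries in turn, with 54 and 56 called. The summed level in Ccdc174-WT went from 5461 and 5259 to 22917 and 21334 normalized CPM, with 59 members called there, against 12.5% of all genes.

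The gene with the largest histone increase was *Hist1h2aa*, an H2A gene, at 9.52 and 9.07 normalized CPM without CHX and 354 and 370 with it (log2 change 5.25 ± 0.13, adjusted p = 4.49e-09). *Hist1h2ba*, an H2B gene that lies beside it in the opposite direction, went from 16.6 and 11.5 to 309 and 303 CPM (4.44). On chromosome 11, *Hist3h2a* went from 1.25 and 1.35 to 50.0 and 34.1 CPM (4.75) and *Hist3h2ba* from 9.05 and 4.45 to 139 and 113 CPM (4.25). In each of these genes the treated libraries were far above both untreated ones. 3 members were not called. *Hist1h1b*, a linker histone gene, gave 532 and 527 CPM without and 434 and 371 with CHX (log2 change −0.40 ± 0.08, adjusted p = 0.00148), so it was lower, but by less than the limit. *Hist2h2ab* gave 4.29 and 2.84 against 3.91 and 3.61 CPM, and these libraries overlapped. *Hist2h2bb* gave 476 and 364 against 895 and 771 CPM, a log2 change of 0.995, just under the limit. The list also holds *H1f0*, a replacement linker histone gene not tied to S phase, which went from 34.0 and 27.2 to 245 and 219 CPM (2.92).

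The stem-loop was searched in the 150 bases after the annotated stop codon (GRCm38), as the 16 bases of the histone stem-loop consensus, and 57 of 60 list members with an annotated stop codon held it (95.0%), against 5 of 13232 other protein-coding genes tested (0.0378%). No match was found for *H1f0*, *Hist1h2al*, *Hist1h2an*, *Hist2h2be* and the pseudogene *Hist3h2bb-ps*, some of which have no annotated stop codon, and all 5 were called higher. The core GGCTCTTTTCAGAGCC stood in 34 genes and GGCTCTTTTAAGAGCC in 9. The sequences of the named genes are shown 5′ to 3′ because called and uncalled members can be set side by side, with the hairpin in capitals and 5 flanking bases on each side.
Hist1h2aa (called, chr13:23934886-23934911, plus strand): aaaaaGGCTCTTTTCAGAGCCacctt
Hist3h2a (called, chr11:58955167-58955192, plus strand): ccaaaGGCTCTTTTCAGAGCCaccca
Hist3h2ba (called, chr11:58949344-58949369, plus strand): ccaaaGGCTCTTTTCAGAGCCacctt
Hist1h2ba (called, chr13:23933725-23933750, minus strand): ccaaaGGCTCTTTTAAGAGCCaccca
Hist1h1b (not called, chr13:21779832-21779857, minus strand): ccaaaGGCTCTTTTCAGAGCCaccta
Hist2h2bb (not called, chr3:96270166-96270191, plus strand): caaaaGGCTCTTTTCAGAGCCacttt
Hist2h2ab (not called, chr3:96220328-96220353, plus strand): aaaaaGGCTCTTTTAAGAGCCaccaa
The hairpin of *Hist1h1b*, which was lower with CHX, has the same 16 bases as that of *Hist1h2aa*, which had the largest increase of the list.

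3 other genes among the 12 largest increases lie on the same strand as a histone gene and overlap it or start near it. *Gm42743* (chr3:96269721-96279001) overlaps *Hist2h2bb* and went from 0.116 and 0.0574 to 9.97 and 11.1 CPM (log2 change 5.002). *Trim17* (chr11:58954685-58973098) overlaps *Hist3h2a* and went from 0.842 and 0.775 to 24.1 and 25.3 CPM (4.56). *Gm12260*, which starts 4982 bases after the end of *Hist3h2a*, went from 16.05 and 8.09 to 295 and 278 CPM (4.62). With CHX, *Gm12260*, which has 1 exon of 411 bases, stood above *Hist3h2a*, at 50.0 and 34.1 CPM. The authors' counting left out reads that overlap more than 1 gene, and whether reads past the histone genes fell into these neighbours was not tested. *Gm12260* is not in the histone list, and whether it is itself a histone gene was not tested.

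Immediate early genes moved in both directions. Of 32 tested, 11 rose and 4 fell, and the median log2 change was 0.24, which became −0.08 without replicate 2 of the untreated libraries. The AP-1 subunit genes *Fos*, *Jun* and *Junb* rose. *Fos* gave 1.10 and 0.803 normalized CPM without CHX and 7.97 and 10.4 with it (log2 change 2.97 ± 0.20, adjusted p = 1.47e-06), and *Junb* gave 12.9 and 5.94 against 83.6 and 83.5 CPM (3.22). *Egr1*, a zinc finger transcription factor gene, rose from 0.29 and 0.143 to 4.21 and 5.75 CPM (3.49). The untreated values of *Egr1* rested on few reads, and its log2 change was between 2.29 and 4.56 over all settings. In these genes the treated libraries lay above both untreated ones by a wide margin. *Ccn2* (2.49), *Jun* (2.06), *Klf10* (1.92), *Ccn1* (1.86), *Atf3* (1.63), *Egr2* (1.63), *Klf6* (1.51) and *Nr4a2* (1.10) rose less. The nuclear receptor gene *Nr4a1* fell from 27.0 and 19.7 to 5.71 and 4.61 CPM (−2.11), and *Tob1* (−1.52), *Btg2* (−1.34) and *Ier5* (−1.28), of which the first pair encodes antiproliferative proteins, fell as well. *Myc* gave 14.5 and 8.26 against 9.05 and 6.80 CPM and was not called.

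Feedback inhibitors of signalling pathways were split. In the NF-κB list, 5 of 12 tested genes rose and 0 fell, with a median of 0.74. *Nfkbia*, which encodes the inhibitor IκBα, went from 18.9 and 18.7 to 58.6 and 42.3 CPM (log2 change 1.39 ± 0.14, adjusted p = 1.38e-05), and *Icam1* (1.42), *Relb* (1.14) and *Birc3* (1.13) joined it and *Tnfaip3*. All 5 are known NF-κB targets. In the ERK list, 4 of 13 rose and 1 fell. *Dusp6*, the phosphatase gene that turns off ERK, went from 10.9 and 7.03 to 55.7 and 45.0 CPM (2.48), and *Spry4*, another inhibitor of the pathway, fell from 15.0 and 14.1 to 7.09 and 5.04 CPM (−1.24). The list median was −0.03, and 0.20 on CPM as deposited. In the cytokine and Notch list, 1 of 11 rose (*Pim2*, 1.69) and 1 fell. The latter was *Hes1*, the repressor gene induced by Notch, which went from 52.6 and 56.8 to 11.1 and 11.98 CPM (−2.22).

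The list of TGF-beta, Nodal and BMP feedback genes moved both ways, and 5 of 14 rose and 4 fell. Without replicate 1 of the CHX libraries 3 rose and 4 fell. The list does not separate the branches of the pathway, and the grouping of its members below followed their values. The 4 Id genes of the list, which encode inhibitors of bHLH factors and respond to BMP, rose. *Id2* went from 3.98 and 5.22 to 115 and 54.3 CPM (log2 change 4.04 ± 0.34, adjusted p = 5.65e-06), *Id1* from 4.58 and 2.38 to 65.6 and 32.4 CPM (3.70) and *Id3* from 14.5 and 14.2 to 227 and 130 CPM (3.56). The 2 treated libraries differed by about 2-fold from each other here, yet both were above every untreated library. *Id4* (1.59) and *Smad6* (1.04) also rose. Those that fell included genes of the Nodal branch. *Lefty1*, a secreted Nodal inhibitor, went from 13 and 16.7 to 2.003 and 1.497 CPM (−2.92 ± 0.24, adjusted p = 4.09e-06) and *Lefty2* from 350 and 320 to 92.2 and 69.2 CPM (−2.06), with *Nodal* itself at −1.26. In the Wnt list, 3 of 10 were called higher (*Rnf43* 1.51, *Sp5* 1.23 and *Dkk1* 1.22) and 0 lower, with a median of −0.34. Only 1 was called without replicate 2 of the untreated or replicate 1 of the CHX libraries, and 2 without replicate 2 of the CHX libraries. *Sp5* (0.464 and 0.115 against 1.11 and 0.808 CPM) lost its call in all 3 of these fits and *Rnf43* (0.813 and 0.287 against 2.21 and 1.64 CPM) in the first 2, and both were near the lower limit without CHX.

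The promoters of NF-κB and immediate early genes were read from RefSeq (GRCm38.p6, 250 bases before to 50 after each start), which matched 10892 of 15049 tested gene symbols. Both strands were searched, motifs could overlap, and a match is a description of the letters only. The NF-κB site was found in 7 of 10 promoters of the NF-κB list (70.0%), against 6.26% of all tested genes and 6.35% of the rising genes. The letters TGACG of the cAMP response element were found in 16 of 25 immediate early genes (64.0%), against 34.1% of tested and 30.0% of rising genes. Both lists were written from known biology and pool called and uncalled members, so these list shares say nothing about the response to CHX. Among all rising genes, the AP-1 site TGANTCA was in 8.98% against 5.85% of tested genes, the GC box GGGCGG in 53.2% against 67.8%, and the serum response element in 1.19% against 1.48%. Over all RefSeq promoters by gene, tested or not, these shares were 8.97%, 38.2% and 1.81%. The rising genes were mostly weakly expressed without CHX, so these shares describe sets of unequal expression. Only 1 of the 62 tested histone genes had a promoter in that table, so no histone promoter is described. The promoters of *Tnfaip3*, *Nfkbia* and *Fos* are shown because they carry such letters beside 3 of the changes above, with NF-κB, AP-1 and TGACG matches in capitals.
Tnfaip3 (chr10:19015361-19015660, minus strand): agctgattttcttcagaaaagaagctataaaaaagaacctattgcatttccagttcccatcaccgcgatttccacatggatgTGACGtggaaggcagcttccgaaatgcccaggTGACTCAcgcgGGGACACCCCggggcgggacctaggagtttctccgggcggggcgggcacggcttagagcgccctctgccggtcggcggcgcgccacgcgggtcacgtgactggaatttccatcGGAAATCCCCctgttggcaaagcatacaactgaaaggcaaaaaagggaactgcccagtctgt
Nfkbia (chr12:55492598-55492897, minus strand): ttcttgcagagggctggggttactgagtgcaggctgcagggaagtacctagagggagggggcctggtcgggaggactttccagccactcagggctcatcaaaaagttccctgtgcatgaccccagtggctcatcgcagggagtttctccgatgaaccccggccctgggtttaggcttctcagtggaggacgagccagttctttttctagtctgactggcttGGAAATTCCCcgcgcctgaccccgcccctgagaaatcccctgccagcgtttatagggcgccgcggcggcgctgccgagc
Fos (chr12:85473640-85473939, plus strand): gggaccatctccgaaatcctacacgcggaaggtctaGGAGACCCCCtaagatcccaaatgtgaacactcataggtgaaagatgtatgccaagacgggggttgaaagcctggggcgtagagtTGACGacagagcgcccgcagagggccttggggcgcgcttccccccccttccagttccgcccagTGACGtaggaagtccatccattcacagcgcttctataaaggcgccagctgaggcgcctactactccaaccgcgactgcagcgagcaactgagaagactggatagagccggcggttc
In the *Tnfaip3* promoter shown, the NF-κB matches begin at −125 and −12 from its RefSeq start, the AP-1 match at −136 and TGACG at −168. Another RefSeq promoter of *Tnfaip3* (chr10:19011914-19012213) held 0 of these matches. In *Nfkbia* the NF-κB match begins at −29, and in *Fos* TGACG begins at −129 and −66.

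Genes of KRAB-type and other Zfp zinc finger proteins, many of which encode DNA-binding repressors, rose in large number. Of 344 tested, 122 were called higher and 1 lower, and 297 had a log2 change above 0, with a median of 0.73. The member with the largest increase was *Zfp677*, at 1.63 and 1.72 normalized CPM without CHX and 25.4 and 25.0 with it (log2 change 3.73 ± 0.13, adjusted p = 2.8e-08). The member that fell was *Zfp296*, a gene of pluripotent cells, from 63.0 and 52.2 to 13.1 and 12.7 CPM (−2.13 ± 0.12, adjusted p = 4.23e-07). In both, treated and untreated libraries were well apart.

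snoRNA host genes, whose spliced exons often carry early stop codons and which are known substrates of NMD, also split. Of 15 tested, 6 rose, 3 fell and the median was 0.53. *Snhg15* went from 64.4 and 64.5 to 343 and 318 CPM (log2 change 2.35 ± 0.08, adjusted p = 2.29e-08), *Snhg1* from 129 and 148 to 426 and 390 CPM (1.56), and *Snhg17* (2.01), *Zfas1* (1.64), *Epb41l4aos* (1.39) and *Snhg12* (1.03) rose with them. *Dancr* fell from 16.2 and 17.2 to 3.29 and 2.64 CPM (−2.41 ± 0.18, adjusted p = 2.85e-06), as did *Snhg3* (−1.45) and *Snhg20* (−1.32). *Gas5*, a host gene well known for stabilization by CHX, gave 219 and 248 CPM without and 235 and 213 with CHX, so that its libraries overlapped. Of 14 known NMD targets (a list that also holds *Gas5*), 3 rose and 0 fell, with a median of 0.32. These were *Ddit3* (11.8 and 8.47 against 44.0 and 44.4 CPM, 2.12), *Map3k14* (4.64 and 3.07 against 16 and 15.2 CPM, 1.97) and *Gadd45a* (7.25 and 7.98 against 20.2 and 21.8 CPM, 1.44). Of 14 NMD factor genes, *Dhx34* (1.03) and *Smg9* (1.00) were called higher and *Etf1*, the translation release factor gene, lower (−1.04). The upward share of 14.3% is close to that of all genes, and without replicate 2 of the untreated libraries 0 were called in either direction, with *Dhx34* at 0.81 and *Etf1* at −0.95.

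Most genes of the splicing machinery changed by less than the fold limit at the level of the whole gene. None of 13 SR protein and TRA2 genes was called by limma, and the list median was −0.54. However, 8 of them were lower at an adjusted p below 0.01 without regard to size, against 24.2% of all genes. Without replicate 1 of the untreated libraries 2 were called lower, and the median was −0.64. *Srsf5* was the lowest, at 306 and 383 against 180 and 173 CPM (−0.96). Such counts add up all transcripts of a gene, so that a rise of a poison-exon isoform would not be separated here. Among 32 hnRNP and other regulators, the kinase genes *Clk4* (48.5 and 39.7 against 114 and 111 CPM, 1.36) and *Clk3* (1.11) rose and *Rbm3* (−1.26), *Luc7l3* (−1.16) and *Ddx5* (−1.13) fell, and the 3 falls were not called on CPM as deposited. Of the 3 genes whose introns the study names as dependent on CCDC174 and NRDE2, a list chosen on these samples and no independent evidence, 0 were called. *Tti1*, a cofactor for the assembly of PIKK kinases, gave 27.2 and 29.5 against 47.2 and 48.1 CPM (0.75), *Dnmt1* 327 and 304 against 365 and 366 CPM (0.21), and *Cdk2* 67.4 and 70.5 against 52.1 and 52.1 CPM (−0.40).

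The transferrin receptor gene *Tfrc*, which mediates iron uptake and whose mRNA is known for regulated decay, had the largest decrease among protein-coding genes of the 12 largest decreases. It gave 585 and 674 normalized CPM without CHX and 83.3 and 57.6 with it (log2 change −3.18 ± 0.21, adjusted p = 1.15e-06). Genes with no annotated protein made up much of the rest, with *C230096K16Rik* at 3.92 and 4.99 against 0.207 and 0.119 CPM (−3.51), *Mir124a-1hg* at 3.28 and 2.21 against 0.207 and 0.0238 CPM (−3.06) and *Mir17hg*, the host of the miR-17 cluster, at 17.8 and 25.3 against 3.61 and 2.76 CPM (−2.66). In each of them both treated libraries were several fold below both untreated ones. The nuclear noncoding RNA *Neat1*, the scaffold of paraspeckles, fell from 52.8 and 61.8 to 12.8 and 10.8 CPM (−2.26), and it was joined by *Tsix* (−1.91), *Rian* (−1.33) and *Mirg* (−1.02) among 12 nuclear long noncoding RNAs, of which *Ftx* (1.10) and *Tug1* (1.02) rose.

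Many targets of p53 fell. Of 24 tested, 12 were called lower and 2 higher, and the median was −0.998. *Cdkn1a*, which encodes the CDK inhibitor p21, gave 78.5 and 80.8 CPM without CHX and 11.3 and 9.77 with it (log2 change −2.90 ± 0.09, adjusted p = 2.07e-08). *Zmat3* (43.1 and 45.7 against 13.9 and 13.7 CPM, −1.66), *Ccng1* (783 and 788 against 262 and 288 CPM, −1.51) and *Plk3* (−1.50) followed, and *Mdm2*, the ubiquitin ligase gene that limits p53, was just past the limit at 232 and 228 against 109 and 121 CPM (−1.001). The 2 that rose were *Gadd45a* (1.44) and *Rrm2b* (1.08). On CPM as deposited, 6 were called lower and 2 higher. In Ccdc174-WT, 13 of these genes were called lower.

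Cytosolic ribosomal protein genes lay almost all below 0, in 77 of 79 members, over a range of −1.77 to 0.68. Of the 79 tested, 18 were called lower and 0 higher, 72 were lower at an adjusted p below 0.01 without regard to size, against 24.2% of all genes, and the median was −0.80. Their summed level was 21292 and 21496 normalized CPM without and 13213 and 13236 with CHX, so that the pairs were tight and far apart. The count of calls depended on scaling and on the untreated pair, with 5 called on CPM as deposited, 27 without replicate 1 and 14 without replicate 2 of the untreated libraries. *Rps29* had the largest decrease, at 2.23 and 2.24 against 0.437 and 0.523 CPM (−1.77), followed by *Rps27a* (24.5 and 30.2 against 9.12 and 7.65 CPM, −1.67) and *Rps13* (−1.63). *Rpl13a*, at 193 and 199 against 110 and 113 CPM, was near the list median (−0.81). *Rpl3* was the exception, at 67.4 and 75.7 against 123 and 106 CPM (0.68, adjusted p = 3.07e-04), higher but by less than the fold limit. The counting used uniquely mapping reads, and many of these genes have processed pseudogenes with nearly the same sequence, so their levels are uncertain.

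mRNAs of ribosomal proteins typically begin with a run of pyrimidines, the TOP motif, through which their translation and stability are regulated. A C followed by at least 4 further pyrimidines within 3 bases of the RefSeq start was found in 24 of 58 ribosomal protein genes with a promoter entry (41.4%), against 15.1% of tested and 19.4% of falling genes. 3 examples show how the run, in capitals, sits at the start site, in 30 bases from GRCm38.p6.
Rpl28 (chr7:4792955-4792984, plus strand): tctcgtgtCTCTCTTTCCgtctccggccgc
Rpl13a (chr7:45128726-45128755, minus strand): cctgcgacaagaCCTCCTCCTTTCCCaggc
Rps15a (chr7:118116128-118116157, minus strand): tttctgccatCTTCCCTCgccggtgagtga
*Rpl28* gave 15.4 and 11.6 against 9.85 and 9.32 CPM (log2 change −0.47, adjusted p = 0.0243) and *Rps15a* gave 300 and 374 against 171 and 171 CPM (−0.97, adjusted p = 1.29e-05), and neither passed both limits.

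Heat shock genes had a median of −0.93, with 4 of 13 called lower and 0 higher, but only 1 on CPM as deposited. *Hspa8*, the constitutive HSC70 chaperone gene, went from 697 and 626 to 204 and 202 CPM (log2 change −1.70 ± 0.08, adjusted p = 1.38e-07), with *Dnajb1* (−1.12), *Hspd1* (−1.08) and *Hspa1b* (−1.04). In the unfolded protein response list, 1 of 19 was called, *Herpud1*, which went from 32.8 and 24.1 to 6.84 and 6.20 CPM (−2.07). In the ATF4 list, 3 of 30 rose (*Ddit3*, *Atf3* and *Stc2*, the last at 1.22) and 2 fell (*Slc7a11*, −1.50, and *Sesn2*, −1.12), and the median of −0.18 was 0.08 on CPM as deposited. Naive pluripotency genes had a median of −0.51, and 4 of 24 were called lower, of which 2 on CPM as deposited. *Nanog* gave 891 and 1160 against 370 and 377 CPM (−1.45 ± 0.12, adjusted p = 5.23e-06) and *Fgf4* 313 and 394 against 114 and 94.8 CPM (−1.76), with *Tfcp2l1* and *Nr5a2* both at −1.14. Markers of other cell types are given beside these. Their levels were summed over all listed markers, tested or not. For primitive endoderm (7 markers, 5 tested, *Pdgfra* called higher) the sums went from between 9.34 and 9.90 to between 13.8 and 15.1 normalized CPM. Those of fibroblast feeder cells (8 markers, 3 tested) went from 7.40 and 8.61 to 12.1 and 13.1. Trophectoderm (7 markers, 5 tested) went from 54.8 and 69.2 to 42.0 and 43.4. Neuroectoderm (4 markers, 4 tested, *Pax6* called higher and *Tubb3* lower) went from 175 and 220 to 166 and 175, and mesoderm (4 markers, 2 tested) from 8.06 and 8.68 to 6.51 and 7.09. No tested marker was at 0 in these libraries, and the part of such cells in the changes was not tested. In bulk samples, fewer cells of a type and less RNA per cell cannot be told apart.

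**Figure D3:**
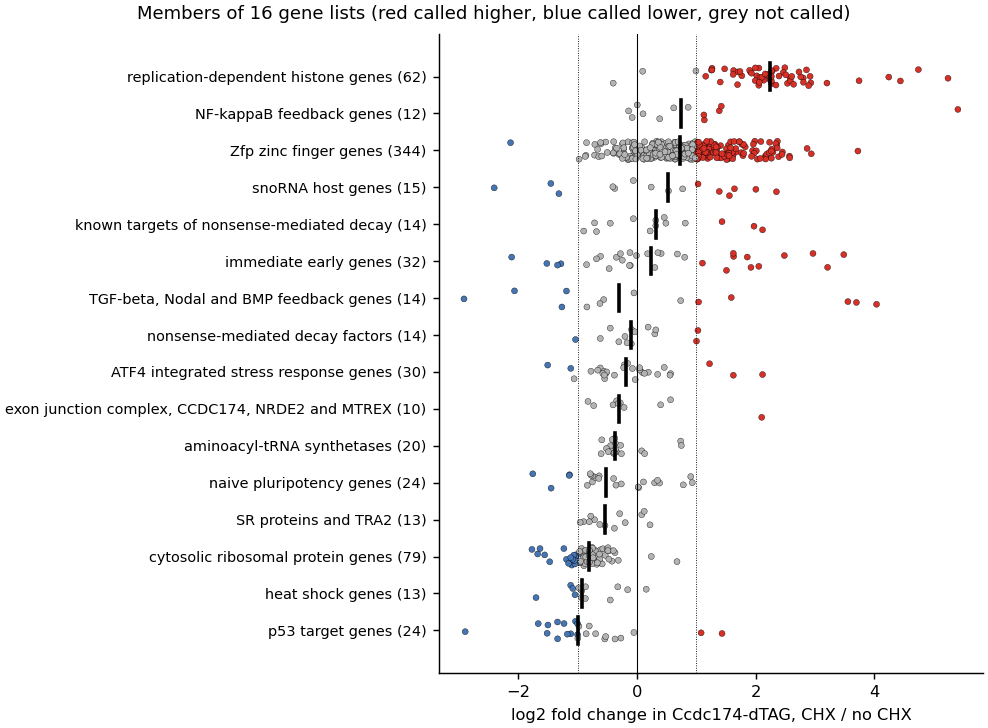
Each point is a tested member of 1 of 16 gene lists (number of tested members in parentheses), placed by its log2 fold change in Ccdc174-dTAG, CHX over no CHX, red where called higher, blue where called lower and grey where not called, with a black bar at the list median and dotted lines at 1 and −1. The histone list lies almost wholly to the right, with a median of 2.25, and the p53 and ribosomal protein lists lie to the left, with medians of −0.998 and −0.80.

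Single calls also came or went without 1 library in some lists. Without replicate 1 of the untreated libraries 1 p53 target and 1 nuclear noncoding RNA were called higher, in place of 2 and 2, 1 known NMD target and 2 Zfp genes were called lower, in place of 0 and 1, and 2 cytokine and Notch genes were called higher, in place of 1. Without replicate 1 of the CHX libraries 2 cytokine and Notch genes and 1 naive pluripotency gene were called higher, in place of 1 and 0, and 2 ERK genes lower, in place of 1. Without replicate 2 of the CHX libraries 2 Zfp genes were called lower.

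The structure of the called protein-coding genes was set beside that of all tested ones, without a test. Single-exon genes were 2.86% of the 13310 tested protein-coding genes, 9.62% of those that rose and 3.80% of those that fell. Without the histone and Zfp genes described above, they were 80 of 1228 rising genes (6.51%). Genes with an annotated NMD transcript were 27.8% of all, 23.6% of the rising and 15.2% of the falling genes. The letters ATTTA, the core of AU-rich elements, were present in an annotated 3′ UTR of 68.5% of all, 68.0% of the rising and 74.8% of the falling genes, whose median 3′ UTR lengths were 1107, 1079 and 1561 bases. Per kb of 3′ UTR, ATTTA occurred 1.80 times in all, 1.90 times in the rising and 1.69 times in the falling genes. The median untreated level was 22.9 CPM over all of them, 2.15 in the rising and 64.8 in the falling genes, so these shares describe sets of unequal expression.

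The response of CCDC174-depleted cells was close to that of the same line without dTAG-13. In Ccdc174-WT, CHX raised 1883 genes (12.5%) and lowered 405 (2.69%), 15.2% of those tested in all. Of the genes that rose in Ccdc174-dTAG, 1474 also rose in Ccdc174-WT, which was 84.3% of the first and 78.3% of the second list, and of those that fell, 304 were shared (70.7% and 75.1%). No gene was called in opposite directions. In Nrde2-KO cells 13.6% of genes were called, 1545 higher (10.3%) and 495 lower (3.29%). Of these, 1252 and 295 were shared with Ccdc174-dTAG, which was 71.6% and 68.6% of the Ccdc174-dTAG lists and 81.0% and 59.6% of the Nrde2-KO lists. Across the 15054 genes, which are not independent replicates, log2 fold changes in Ccdc174-dTAG correlated with those in Ccdc174-WT at r = 0.937 (Spearman 0.923) and with those in Nrde2-KO at r = 0.910 (0.900), and none of these pairs share libraries.

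**Figure D4:**
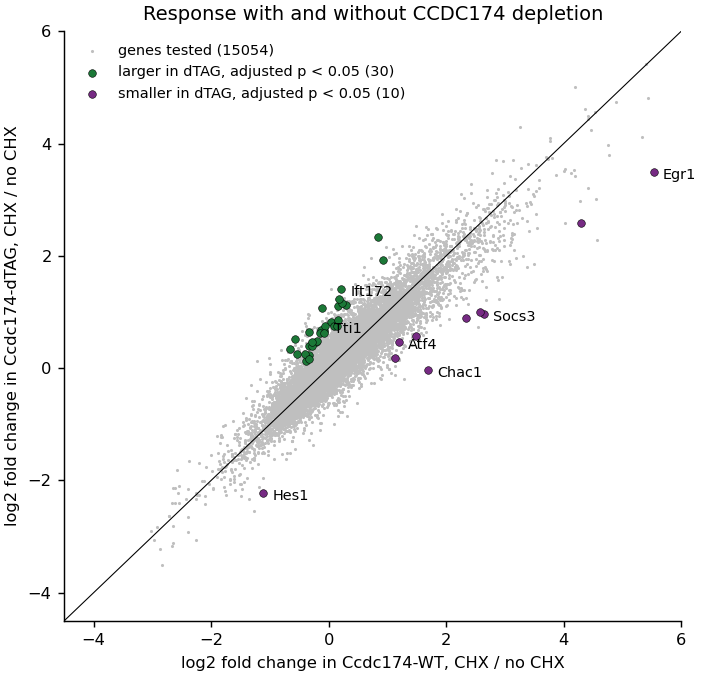
Log2 fold changes, CHX over no CHX, of the 15054 genes in Ccdc174-WT (horizontal) and Ccdc174-dTAG (vertical), with the line of equal response. Colours mark the sign of the difference, Ccdc174-dTAG minus Ccdc174-WT, at an adjusted p below 0.05 in limma. The 30 genes with a positive difference (green) lie between −0.66 and 0.93 in Ccdc174-WT, with a median of −0.12. The 10 with a negative one (purple) have a median of 2.01 there.

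The difference of the 2 responses was tested as an interaction term in limma, and 0 genes passed an adjusted p of 0.01. At an unadjusted p below 0.05 there were 1369 genes by limma and 1371 by edgeR, which called 0 as well, whereas DESeq2 called 14. At the looser limit of an adjusted p below 0.05, without regard to size, 40 genes stood out (0.266% of those tested), 30 with a positive and 10 with a negative difference (0.199% and 0.0664%). Leaving out replicate 1 or replicate 2 of the untreated Ccdc174-dTAG pair gave 17 and 6 genes at the strict limits, and leaving out any other library gave 0.

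The 30 genes with a positive difference shared a pattern. All 30 were lower in Ccdc174-dTAG than in Ccdc174-WT without CHX, against 6719 of all 15054 genes tested. Their median log2 difference was −1.07 without and −0.26 with CHX, against 0.036 and 0.016 over all genes tested. Since the untreated Ccdc174-dTAG libraries enter both this level and the difference of responses, this is a description. *Ift172*, a gene of ciliary transport, gave 12.9 and 13.2 CPM in untreated and 35.6 and 34.6 in treated Ccdc174-dTAG cells, and 37.8 and 34.8 against 40.5 and 43.9 CPM in Ccdc174-WT. It was thus well below Ccdc174-WT without CHX and nearer to it with CHX, and the difference of responses was 1.19 ± 0.12 on the log2 scale (adjusted p = 0.0153, limma). The protein kinase gene *Mink1* gave 19.7 and 18.1 against 27.4 and 27 CPM in Ccdc174-dTAG and 49.8 and 48.9 against 33.5 and 33 CPM in Ccdc174-WT, so that CHX moved it up in the first and down in the second (1.09 ± 0.12, adjusted p = 0.0153). *Scube3* (1.49), *Spice1* (1.00), *Aaas* (0.99), *Tti1* (0.82, adjusted p = 0.0273), *Pan2* (0.81) and *Sdad1* (0.80) belonged to the same set. Libraries of the Nrde2 experiment played no part in this choice of genes. There the log2 fold change was higher in Nrde2-KO than in its own WT in 30 of the 30 genes, against 6886 of all 15054. The medians of the 30 were 0.59 and −0.09.

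**Figure D5:**
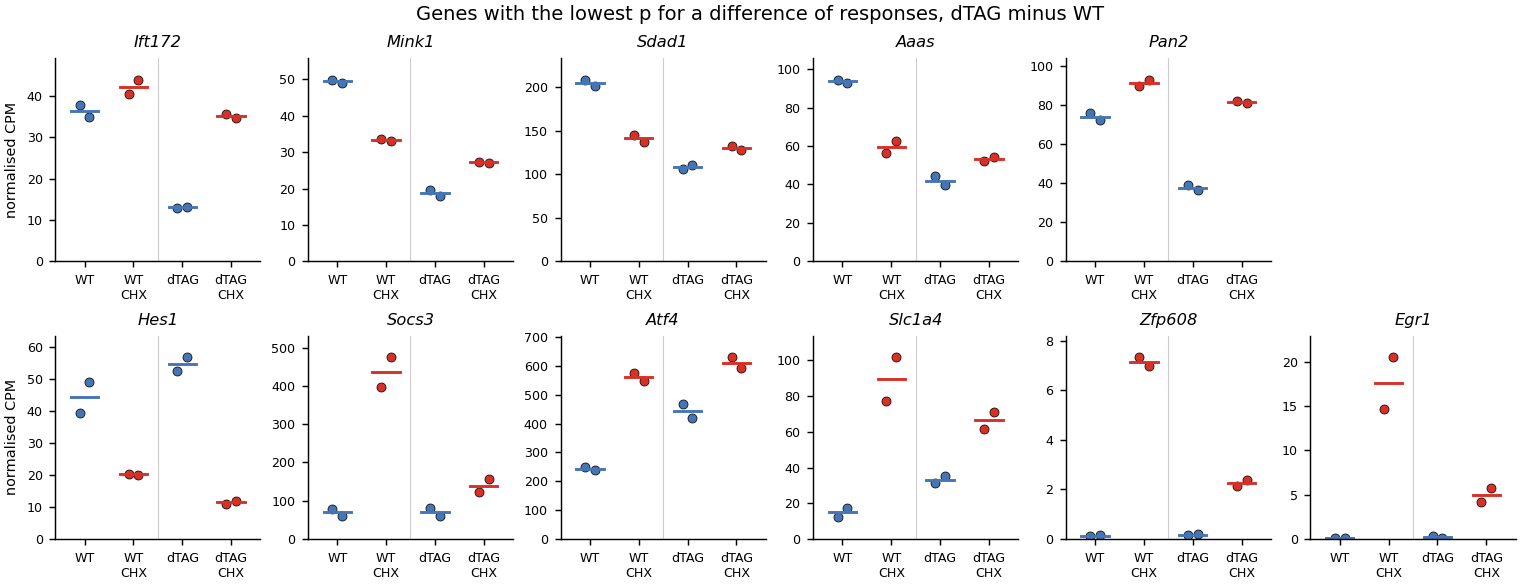
Normalized CPM in each library of 5 of the 6 genes with the lowest p among positive (top) and the 6 among negative (bottom) differences of the CHX response, Ccdc174-dTAG minus Ccdc174-WT, with blue points for untreated and red points for CHX-treated libraries and bars for the mean of 2. In the top row the untreated Ccdc174-dTAG libraries lie lowest, and in the bottom row Ccdc174-dTAG with CHX lies below Ccdc174-WT with CHX for every gene but Atf4.

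The 10 genes with a negative difference included several of known stress and cytokine response. *Socs3*, the feedback inhibitor of LIF signalling, gave 81.5 and 60.4 CPM in untreated and 122 and 155 in treated Ccdc174-dTAG cells, and 79.0 and 60.8 against 396 and 474 CPM in Ccdc174-WT. The untreated levels overlapped and the treated ones did not, and the difference of responses was −1.67 ± 0.24 (adjusted p = 0.0228). *Egr1* reached 14.7 and 20.5 CPM in Ccdc174-WT with CHX, above both treated Ccdc174-dTAG libraries (−2.05, adjusted p = 0.0467). For *Atf4*, the gene of the central factor of the integrated stress response, the untreated level was the one that differed, at 468 and 419 CPM in Ccdc174-dTAG against 250 and 238 in Ccdc174-WT, and the treated levels were 629 and 591 against 576 and 546 (−0.74, adjusted p = 0.0228). Its targets *Chac1* (−1.72) and *Slc1a4* (−1.58) were in the same set, as were *Nupr1* (−0.92), *Hes1* (−1.11) and *Zfp608* (−1.71). Among these 10 genes, the log2 fold change was higher in Nrde2-KO than in its WT in 2.

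The responses of Ccdc174-dTAG and Nrde2-KO were also set against each other, and 23 genes differed at the strict limits (0.153% of those tested). Of these, 9 had a positive difference, Ccdc174-dTAG minus Nrde2-KO, and 14 a negative one (0.0598% and 0.093%). The positive side depended on single libraries. Without any 1 library of either CHX group limma called 0 genes on that side and between 4 and 11 on the other (between 1366 and 1543 in all at an unadjusted p below 0.05), and without an untreated Nrde2-KO library it called 1 or 2, as it did without replicate 2 of untreated Ccdc174-dTAG (2). edgeR with all libraries called 8 and 12. The lines and experiments differ together with the lost protein, and these cannot be told apart. *Egr1* rose by 7.43 in Nrde2-KO and 3.49 in Ccdc174-dTAG on the log2 scale, and *Egr2* by 4.67 and 1.63. *Cdkn1a* fell by 1.14 in Nrde2-KO and by 2.90 in Ccdc174-dTAG, and the p53 targets called lower numbered 3 in Nrde2-KO and 12 in Ccdc174-dTAG, a difference of counts that was not tested.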

How the data were processed

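RNA-seq libraries (stranded, total RNA) were aligned by the authors to mm10 with STAR 2.7.3a, uniquely mapping reads of the correct strand were counted per gene of GENCODE M23 with featureCounts, and the authors deposited CPM with no further scaling. Values were whole multiples of 1 read (100% within 0.1 of a whole number, largest deviation 0.0141 in the 8 libraries), so reads were recovered. The total behind the deposited CPM was larger than the reads in genes, which were between 32972802 and 36272309 in the 8 Ccdc174 libraries. Genes were named with GENCODE M21 of GRCm38 (55154 of 55335 identifiers, 181 without a match).

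CPM were divided by median-of-ratios factors, 0.25 was added and log2 was taken, so that fold changes of low genes are understated. limma 3.58.1 (R 4.3.3) with a mean-variance trend was fitted to the 8 Ccdc174 libraries (residual df 4), and to 16 libraries for Nrde2-KO. Genes named were Ccdc174, the 12 largest increases and decreases at 2 CPM or more without overlap, the 6 lowest p per direction of the difference of responses, and per list the first 5 members and the extremes. Other genes were named after their values were seen, as called members of a list. Members and lists were chosen with earlier results of these data known. The count tests on recovered reads, edgeR 4.0.16 quasi-likelihood (2117 genes higher, 434 lower) and DESeq2 1.42.0 (1778 and 451), were alternatives, as were pseudocounts of 0.1 and 1, a filter at 1 CPM or none, TMM factors, CPM as deposited, a replicate block, other sets of libraries and leaving out each library. A few genes of these sets are not reported here. Sequences came from RefSeq and GRCm38. The fits were tested on simulated data.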

Additional observations from a re-analysis of the deposited data

Results flagged for a closer look

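In 23 genes the CHX response differed between Ccdc174-dTAG and Nrde2-KO by the test of the difference itself (limma, 16 libraries, adjusted p below 0.01). On the log2 scale, Ccdc174-dTAG minus Nrde2-KO, the immediate early genes *Egr1* (−3.95), *Egr2* (−3.05), *Ccn1* (−1.33) and the phosphatase gene *Dusp1* (−1.57) had the smaller increase in Ccdc174-dTAG. The prostaglandin synthase gene *Ptgs2* (−2.83) and the homeobox gene *Msx1* (−2.92) did so as well, as did *Hs3st3b1* (−1.47) and *Ppp4r4* (−1.14). *Nrde2* (−1.52) is the gene deleted in the other line, where the response of its remaining RNA was 3.63. A deeper fall in Ccdc174-dTAG gave the negative values of *Cdkn1a* (−1.75), *F3*, the gene of tissue factor (−1.59), *Hes1* (−1.58), *Epha2* (−1.08) and the amino acid transporter gene *Slc38a2* (−1.04). Positive differences included *Chst3* (1.33), *Gprc5b* (1.34), *Zcchc24* (1.36), *B3gnt3* (1.42), *Lgals4* (1.55), *Tnfsf11* (1.82), *Nat8f2* (1.94) and *Pclo* (2.29). This side depended on single libraries, as given above. Untreated Ccdc174-dTAG means of *Egr2*, *Nat8f2* and *Pclo* were 0.101, 0.389 and 0.115 CPM, which rest on few reads. In *Nat8f2*, untreated Nrde2-KO gave 3.34 and 2.77 CPM against 0.241 and 0.432 in its untreated WT. In *Pclo* these were 1.25 and 1.53 against 0.271 and 0.154, and in *Lgals4* 6.62 and 4.82 against 1.29 and 1.45. *Chst3*, *Gprc5b* and *B3gnt3* were higher by less, *Zcchc24* was lower and *Tnfsf11* overlapped. The WT cells of the Nrde2 experiment had a response of 5.82 for *Egr1* and −2.05 for *Cdkn1a*, and the lost protein cannot be told apart from line and experiment.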

How the results depend on the processing

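The counts of the CHX response kept within 1.5 times of 1748 genes higher and 430 lower, except that a pseudocount of 1 gave 1113 and 282, with 1476 in place of 2288 genes in Ccdc174-WT, and CPM as deposited gave 216 lower. A larger pseudocount shrinks fold changes of low genes by construction, and on the deposited scale the median of all genes is 0.24. Without 1 library at a time, between 1603 and 1778 genes were called higher and between 373 and 545 lower in Ccdc174-dTAG. The difference between Ccdc174-dTAG and Ccdc174-WT, with 0 genes called, gave 14 with DESeq2, 9 with all 16 libraries and between 0 and 17 without 1 library at a time, and the cause was not tested. The difference from Nrde2-KO, with 23, gave 39 with a pseudocount of 1 and between 4 (without replicate 1 of Nrde2-KO with CHX) and 24 without 1 library at a time, and the fits without a library of either CHX group gave 4, 6, 11 and 11. Groups shared replicate numbers 1 and 2, but nothing says that a number marks a shared culture. Replicate deviations of the 4 Ccdc174 groups correlated at 0.18 to 0.37, and with the replicate block 1761 genes were higher and 440 lower, 10 differed between Ccdc174-dTAG and Ccdc174-WT and 62 from Nrde2-KO. No response of a named gene reversed. Among those responses, 2159 results under other settings stayed on their side of the limits, 31 fell below and 14 rose past them, against 1566, 21 and 21 without 1 library. With 2 libraries per group, genes near 0.5 CPM rest on few reads and are imprecise.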

Other observations

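The response of Ccdc174-dTAG cells was also counted by gene class. Of 324 long intergenic noncoding RNAs tested, 101 were called higher and 14 lower (31.2% and 4.32%), against 1403 and 263 of 13310 protein-coding genes (10.5% and 1.98%). Antisense genes gave 56 and 6 of 210, and unprocessed pseudogenes 16 and 0 of 37. Small nucleolar RNA genes had no member called higher, with 0 higher and 25 lower of 70 and a median log2 change of −0.84, as did 14 microRNA genes, with 0 higher and 9 lower, although such short RNAs are poorly held by RNA-seq of this kind. Genes that the annotation classes as TEC, still to be checked by experiment, gave 20 higher and 62 lower of 223. The differences between classes were not tested.

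In most housekeeping lists few or no genes passed the fold limit, although many members were lower by less. None of 30 ribosome biogenesis genes, 20 aminoacyl-tRNA synthetase genes and 11 polyamine genes was called by limma, with medians of −0.35, −0.38 and −0.37. In these lists 18, 15 and 6 genes were lower at an adjusted p below 0.01 without regard to size, against 24.2% of all genes. For the first and the last of these lists the count of calls depended on single libraries, since 3 ribosome biogenesis genes and 1 polyamine gene were called lower without replicate 1 of the untreated libraries and 2 ribosome biogenesis genes without replicate 1 of the CHX libraries. Of 28 sterol synthesis and SREBP target genes, *Scd2* fell, from 583 and 589 to 259 and 210 normalized CPM (−1.33). Of 33 cyclins, CDKs and cell cycle regulators, *Cdk1* (250 and 299 against 111 and 110 CPM, −1.31), *Ccnb1* (−1.26), *Wee1* (−1.19) and *Plk1* (−1.12) fell, all genes of entry into mitosis, of which 1 was called on CPM as deposited. These 4 genes were 12.1% of the list, against 2.86% of all genes tested. Of 10 U1 snRNP and Sm protein genes, *Snrpf* fell (−1.01), and the median was −0.73. All 10 lay below 0, and 7 were lower at an adjusted p below 0.01 without regard to size. None of 7 tested genes of the 2-cell stage and none of 9 PIKK assembly genes was called. Of 9 mitochondrially encoded genes, *mt-Nd6* fell (−1.15). Without replicate 1 of the untreated libraries the sterol list had 1 call higher and 2 lower and the U1 and Sm list 2 lower, and without replicate 2 of them these lists had 2 and 0 lower and the mitochondrial list 2. The call in the U1 and Sm list was lost without replicate 2 of the CHX libraries as well.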
